A study of Oryza sativa Indica Group with 16 samples.

Results

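Unstressed seedlings of a salt-tolerant rice bulk were compared with unstressed seedlings of a salt-sensitive bulk, on the 4 arrays of these groups out of 16 in the series. The arrays were chosen by their titles, with 2 tolerant bulk control arrays and 2 sensitive bulk control arrays. Each bulk pools recombinant inbred lines, derived from the salt-tolerant parent CSR27 and the salt-sensitive parent MI48, that were grouped by their salt phenotype. The labels give neither the number of lines in a bulk nor the tissue, and describe all samples as indica rice seedlings 10 days after germination. The 4 salt arrays of the same bulks, from seedlings treated with 150 mM NaCl for 24 h, shared the fit and served as a second view of each difference, and the 8 parent arrays entered no test. The design text calls the arrays of a group biological replications but does not give how plants were divided between them, and p-values here cover only the spread between these arrays.

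Recombinant inbred lines carry fixed mixtures of their parents' genomes, and pooling lines by phenotype averages out loci unlinked to the trait, so that the pools differ most where lines were selected alike. A rice seedling in its early growth also lives on the remains of its grain. The endosperm holds starch made in part by granule-bound starch synthase, and the storage proteins prolamin and glutelin, while the aleurone layer secretes alpha-amylases and proteases that mobilise them. In bulk tissue, fewer cells of a type and less RNA per cell cannot be told apart.

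Values are Affymetrix probe set signals on a linear scale, brought to a common array median of 18.4. A probe set was tested if it reached 18.4 on at least 2 of the 8 bulk arrays. Differences are tolerant minus sensitive bulk on the scale log2(signal + 4), which understates differences of dim probe sets, with the standard error and the Benjamini-Hochberg adjusted p of limma's moderated test over all tested probe sets. The files used here hold no detection calls, so signals under 18.4 are read only as dim. Before scaling, the medians of the 8 arrays ran from 14.8 to 26.1. Spearman's rho was 0.964 between the tolerant control arrays, with an SD of 0.529 for their log2 difference, and 0.946 between the sensitive control arrays, with an SD of 0.638. Sensitive control replicate 1 was closer to tolerant control replicate 1 (rho 0.954) than to its own replicate.

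Of 32996 probe sets tested, 480 (1.45%) differed between the bulks without salt at an adjusted p under 0.05. Of these, 391 (1.18% of those tested) were higher and 89 (0.27%) lower in the tolerant bulk, and 245 and 51 differed by more than 1 on the log2 scale. Among probe sets of named genes, from which the gene lists are drawn, 57 of 2802 (2.03%) were higher and 10 (0.357%) lower. All 480 had groups of arrays that did not overlap, as did 41.6% of all probe sets tested, so the lack of overlap alone marks no call. The surplus of higher calls depended on the scaling. Under median scaling the probe sets as a whole had a median difference of 0.09, with 19605 of 32996 above 0. At the bright end the shift was larger. The top 1% of signals began at 2550 and 2760 on the tolerant control arrays, against 2210 and 2200 on the sensitive control arrays. Quantile normalization, which removed that shift, gave 720 calls (2.18%), 368 higher (1.12%) and 352 lower (1.07%), with 409 of the 480 among them. Each array moved the count by more than 1.5 times when left out. Leaving out an array leaves 1 in its group, so a lost call need not mean that this array carried the difference. The count was 200 and 109 without tolerant control replicates 1 and 2, 3149 and 1418 without sensitive control replicates 1 and 2, 279 and 281 without tolerant salt replicates 1 and 2, and 278 and 277 without sensitive salt replicates 1 and 2. Of the 92 called probe sets covered by the naming rule, 51 and 36 kept their call without tolerant control replicates 1 and 2.

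Transcripts of grain storage proteins showed the largest named differences. Of 16 storage protein probe sets tested, from 11 genes, 5 were higher and 0 lower in the tolerant bulk, and the list median was 1.71 against 0.09 for all probe sets tested. PROLM25, a prolamin, had signals of 546 and 547 in the tolerant bulk, against 6.97 and 4.51 in the sensitive bulk (difference 5.83 ± 0.23, SE, n = 2 and 2, limma adjusted p = 9.7e-07). It was thus bright on both tolerant arrays and under the dim limit on both sensitive arrays. A second PROLM25 probe set had 109 and 86.2 in the tolerant bulk, against 0.916 and 0.925 in the sensitive bulk (4.36 ± 0.41, limma adjusted p = 4.9e-04). RA14, a seed allergen of the albumin family, had 725 and 724 in the tolerant bulk, against 33.3 and 21.9 in the sensitive bulk (4.55 ± 0.24, limma adjusted p = 5.9e-06). The other 3 RA14 probe sets tested had differences of 2.09, 1.00 and 0.27 and did not pass the test. The groups did not overlap for either gene.

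Among the glutelins, the main storage proteins of rice grain, GLUB-5 had 195 and 200 in the tolerant bulk, against 14.9 and 12.7 in the sensitive bulk (3.50 ± 0.37, limma adjusted p = 8.5e-04). A GLUA-2 probe set had 97.2 and 75.9 in the tolerant bulk, against 26.3 and 13.6 in the sensitive bulk (1.96 ± 0.36, limma adjusted p = 0.024), while a second GLUA-2 probe set had a difference of -0.06. GLUA-2 no longer passed without tolerant control replicate 1 (1.79, limma adjusted p = 0.20) or 2 (2.13, limma adjusted p = 0.17). GluC and GLUA-1 had differences of 3.07 and 3.09 that missed the threshold (limma adjusted p = 0.094 and 0.13). Several of these probe sets carry suffixes that mark probes shared with near-identical copies, so their signal may come from several family members.

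Of 17 probe sets for starch synthesis 3 were higher and 0 lower, all 3 from GBSS1, the granule-bound starch synthase that makes amylose. The brightest had 3825 and 4791 in the tolerant bulk, against 232 and 416 in the sensitive bulk (3.77 ± 0.22, limma adjusted p = 1.2e-05). Another had 422 and 412 in the tolerant bulk, against 101 and 110 in the sensitive bulk (1.94 ± 0.23, limma adjusted p = 0.0017). The dimmest of the 3 had 36.7 and 55.2 in the tolerant bulk, against 4.93 and 4.86 in the sensitive bulk (2.46 ± 0.48, limma adjusted p = 0.033), and missed the threshold without tolerant control replicate 1 (adjusted p = 0.12) or 2 (adjusted p = 0.40). The 2 remaining GBSS1 probe sets had differences of -0.42 and -0.59 and did not pass. The starch list as a whole was not shifted, with a median of 0.11 and 9 of 17 probe sets above 0, and 5 passed without sensitive control replicate 2.

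Enzymes of reserve mobilisation were also higher. Of 10 probe sets for alpha-amylases and germination hydrolases 4 were higher and 0 lower, with a median of 0.88, and 4 also passed under each alternative setting tried on the 8 bulk arrays. AMY1.1, an alpha-amylase that degrades starch, had 4659 and 5590 in the tolerant bulk, against 950 and 745 in the sensitive bulk (2.59 ± 0.14, limma adjusted p = 6.6e-06). AMY1.4 had 167 and 183 in the tolerant bulk, against 21.5 and 34.2 in the sensitive bulk (2.52 ± 0.24, limma adjusted p = 5.1e-04). EP3A, a cysteine protease of germinating seed, had 3872 and 4495 in the tolerant bulk, against 1377 and 748 in the sensitive bulk (2.03 ± 0.22, limma adjusted p = 0.0011). The 2 arrays of the sensitive bulk differed most for EP3A, yet remained below both tolerant arrays. cbp3, a serine carboxypeptidase, had 2253 and 2652 in the tolerant bulk, against 781 and 780 in the sensitive bulk (1.64 ± 0.13, limma adjusted p = 1.3e-04). The median of the list was 0.59 without sensitive control replicate 1 and 1.39 without replicate 2.

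MS, malate synthase, which turns fat reserves into sugar through the glyoxylate cycle, had 716 and 728 in the tolerant bulk, against 284 and 226 in the sensitive bulk (1.5 ± 0.15, limma adjusted p = 5.8e-04). ICL, isocitrate lyase, the other enzyme particular to that cycle, was chosen after its values were seen. It had 1399 and 1383 in the tolerant bulk, against 703 and 587 in the sensitive bulk (1.11 ± 0.13, limma adjusted p = 0.0019). OsTIP3;1, a tonoplast aquaporin of a subfamily known from seeds, had 83.8 and 87.4 in the tolerant bulk, against 23.2 and 26 in the sensitive bulk (1.65 ± 0.27, limma adjusted p = 0.012). Its call was lost without tolerant control replicate 1 (1.68, limma adjusted p = 0.093) or 2 (1.62, limma adjusted p = 0.16).

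**Figure D1:**
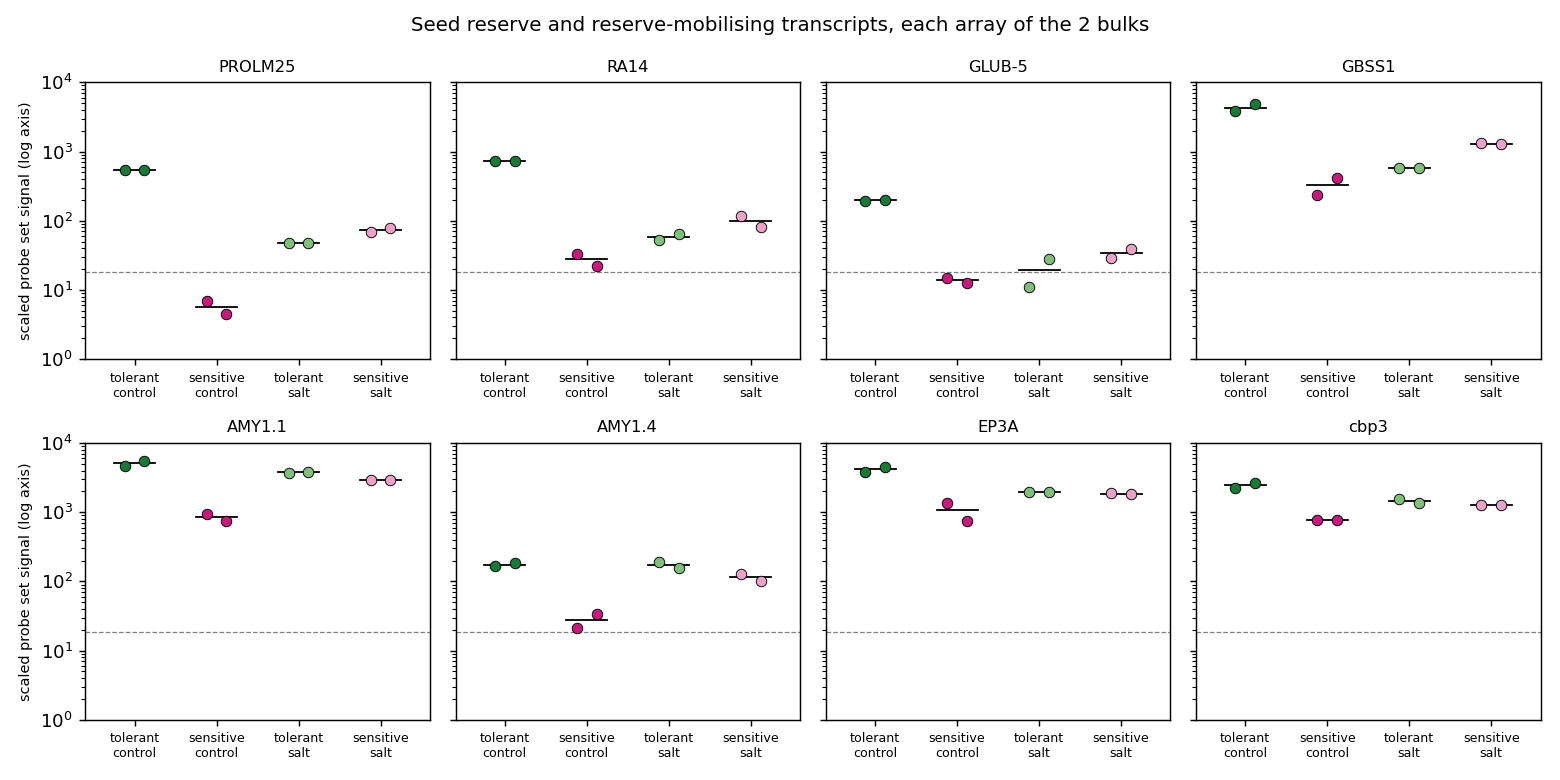
Scaled signal (log axis) of 8 seed transcripts on each of the 8 bulk arrays, with a point per array, a bar at the mean of each group and a dashed line at the dim limit of 18.4. Both tolerant control arrays lie above both sensitive control arrays in all 8 panels, and for the 4 storage and starch transcripts (PROLM25, RA14, GLUB-5, GBSS1) the salt arrays of the 2 bulks lie much nearer to each other.

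The endosperm and aleurone marker sums that follow largely repeat probe sets already given as called, so they are no separate support for those results. The 15 endosperm marker probe sets, which are largely the same storage protein and GBSS1 transcripts, summed to 5599 and 6489 in the tolerant bulk, against 690 and 818 in the sensitive bulk, and 1 against 4 of them were under a signal of 4 on both arrays. Most of the endosperm sum in the tolerant bulk was the brightest GBSS1 probe set. The 7 aleurone and germinating seed markers, alpha-amylases and EP3A, summed to 8784 and 10357 in the tolerant bulk, against 2415 and 1603 in the sensitive bulk. Nearly all of that sum was AMY1.1 and EP3A. The 3 embryo markers differed little in sum, with 829 and 780 in the tolerant bulk, against 733 and 799 in the sensitive bulk. Most of that sum was GLB1, with 772 and 723 in the tolerant bulk, against 696 and 741 in the sensitive bulk. Emp1 and VP1 were near the dim limit. The 6 root markers summed to 1232 and 1233 in the tolerant bulk, against 809 and 792 in the sensitive bulk, and 0 of 5 tested passed. The 13 green leaf markers overlapped, at 54613 and 79025 in the tolerant bulk, against 43100 and 60347 in the sensitive bulk. How far a different amount of grain tissue in the samples contributed to the gene differences was not tested.

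**Figure D2:**
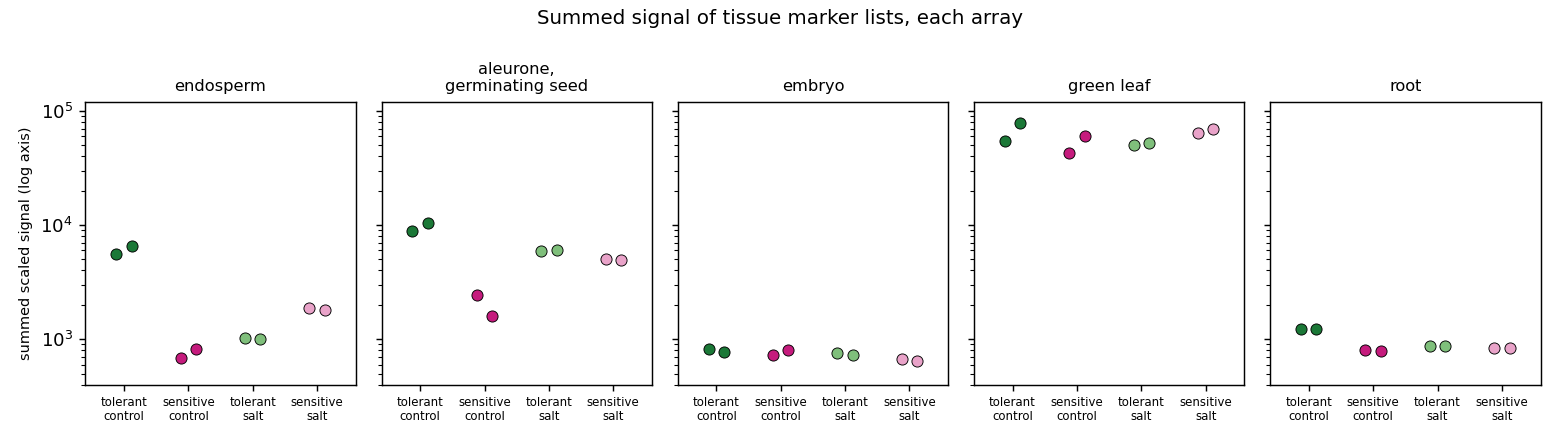
Summed scaled signal (log axis) of 5 tissue marker lists on each bulk array, with a point per array. Endosperm and aleurone sums separate the tolerant control arrays from the sensitive control arrays widely, embryo and green leaf sums overlap between them, and root sums differ by less.

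Other strongly higher probe sets lay outside the seed lists. The largest difference of all was that of a probe set to which the annotation assigns no gene, with 1115 and 1087 in the tolerant bulk, against 2.04 and 8.9 in the sensitive bulk (6.97 ± 0.31, limma adjusted p = 1.8e-06). LOC9270227, a locus without a name here, had 4 of its 5 probe sets called, the brightest with 1623 and 1526 in the tolerant bulk, against 13.6 and 16.2 in the sensitive bulk (6.39 ± 0.35, limma adjusted p = 6.7e-06). A second probe set without a gene had 1822 and 2014 in the tolerant bulk, against 43.8 and 34.6 in the sensitive bulk (5.48 ± 0.17, limma adjusted p = 1.4e-07), and one more had 285 and 274 in the tolerant bulk, against 3.17 and 2.78 in the sensitive bulk, a difference of 5.34 ± 0.53 (limma adjusted p = 6.0e-04). These 4, with PROLM25, were the 5 largest positive differences, and each separated the groups without overlap. Other called LOC9270227 probe sets, with 187 and 169 and with 97.4 and 90.7 in the tolerant bulk, were under 18.4 on all other bulk arrays. They entered the test only through the tolerant control arrays where they were high, so the count of 4 called adds no separate support. In all, 65 probe sets were higher by more than 2 on the log2 scale and 13 lower, and 12 higher by more than 4 and 1 lower.

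Probe sets of NSHB1 and NSHB2, non-symbiotic haemoglobins that bind oxygen tightly and scavenge nitric oxide, were higher in the tolerant bulk. An NSHB1 probe set had 483 and 501 in the tolerant bulk, against 156 and 90.3 in the sensitive bulk (2.01 ± 0.22, limma adjusted p = 0.0011). The other NSHB1 probe sets had differences of 0.70 and 0.71 and did not pass (limma adjusted p = 0.26 and 0.14). NSHB2 had 1417 and 1414 in the tolerant bulk, against 528 and 488 in the sensitive bulk (1.47 ± 0.14, limma adjusted p = 4.2e-04). AARE2, an acylamino-acid-releasing peptidase, had 841 and 218 in the tolerant bulk, against 55.9 and 32.7 in the sensitive bulk (3.21 ± 0.50, limma adjusted p = 0.0096). The tolerant arrays of AARE2 differed widely from each other, and a second AARE2 probe set did not separate the bulks, with 89.2 and 111 in the tolerant bulk, against 105 and 97.1 in the sensitive bulk. HOX2, a homeodomain-leucine zipper factor, had 941 and 902 in the tolerant bulk, against 386 and 346 in the sensitive bulk (1.32 ± 0.15, limma adjusted p = 0.0013). Hox28, of the same family, had 170 and 158 in the tolerant bulk, against 66.7 and 50.4 in the sensitive bulk (1.44 ± 0.23, limma adjusted p = 0.011), and missed the threshold without tolerant control replicate 1 (adjusted p = 0.11) or 2 (adjusted p = 0.13). These 2 were the only calls among 49 homeobox probe sets, whose median was 0.20. So few calls are near the share of named-gene probe sets called higher (2.03%). Without sensitive control replicates 1 and 2, 7 and 4 of the 49 passed, and without tolerant control replicate 1 or 2, 1 did.

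Small heat shock proteins, chaperones that hold unfolded proteins, differed in both directions. Of 23 probe sets 3 were higher and 2 lower, and the list median was 0.17. With quantile normalization the split was 3 and 4. HSP23.2 had 388 and 390 in the tolerant bulk, against 121 and 62.9 in the sensitive bulk (2.11 ± 0.24, limma adjusted p = 0.0015). HSP16.9B had 79.1 and 88.6 in the tolerant bulk, against 24 and 13.4 in the sensitive bulk (1.99 ± 0.26, limma adjusted p = 0.0030), and HSP16.9A, a close relative, had a difference of 1.48 ± 0.26 (limma adjusted p = 0.020). HSP18.1 went the other way, with 238 and 254 in the tolerant bulk, against 647 and 566 in the sensitive bulk (-1.28 ± 0.14, limma adjusted p = 8.9e-04), and its second probe set gave -1.04 ± 0.13 (limma adjusted p = 0.0026). Without tolerant control replicate 2, HSP16.9B (adjusted p = 0.062), HSP16.9A (adjusted p = 0.23) and the second HSP18.1 probe set (adjusted p = 0.067) missed the threshold. Of the 23, 2 passed without tolerant control replicate 2, and 9 and 10 without sensitive control replicates 1 and 2. HSP16.9A also missed it without tolerant control replicate 1 (adjusted p = 0.11) and without any 1 of the salt arrays. Among 22 probe sets of large heat shock proteins and chaperones only 1 was higher, near the share of named-gene probe sets called higher (2.03%). It was 1 of 2 HSP81-1 probe sets, for an HSP90-type chaperone. This probe set had 1712 and 2010 in the tolerant bulk, against 1010 and 759 in the sensitive bulk (1.08 ± 0.17, limma adjusted p = 0.0093). Its call was lost without tolerant control replicate 2 (0.96).

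Heat shock factors, the transcription factors that switch on heat shock genes, were lower where they differed. Of 28 probe sets 0 were higher and 3 lower, 6 lay above 0, and the median was -0.20 under median scaling and -0.28 after quantile normalization. An HSF1 probe set had 381 and 316 in the tolerant bulk, against 772 and 965 in the sensitive bulk (-1.30 ± 0.15, limma adjusted p = 0.0016), and the second HSF1 probe set -0.48, which did not pass (limma adjusted p = 0.42). The entry named HSFA2D had 197 and 169 in the tolerant bulk, against 618 and 611 in the sensitive bulk (-1.73 ± 0.16, limma adjusted p = 3.4e-04). The remaining called probe set, in the entry that joins the names ARD1 and HSF25, had 103 and 89.1 in the tolerant bulk, against 257 and 317 in the sensitive bulk (-1.53 ± 0.17, limma adjusted p = 0.0012). The last 2 entries mix names of heat shock factors with names of acireductone dioxygenases, enzymes of methionine salvage, so it cannot be told from the annotation which gene these probe sets measure. The other probe sets of these 2 entries had differences of 0.05 and 0.27 and did not pass.

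PCL1, a clock component of the LUX type, was the named gene with the largest negative difference. It had 3.61 and 2.33 in the tolerant bulk, against 52.6 and 55.2 in the sensitive bulk (-3.06 ± 0.52, limma adjusted p = 0.016), and was dim on both tolerant arrays. It missed the threshold without tolerant control replicate 1 (-3.19, limma adjusted p = 0.066) or 2 (-2.92, limma adjusted p = 0.14). The other 8 clock probe sets had differences between -0.40 and 0.43 and none passed, although 3 of the 9 were lower after quantile normalization. The largest negative difference of all was that of a probe set without a gene, with 2.04 and 2.33 in the tolerant bulk, against 157 and 258 in the sensitive bulk (-5.05 ± 0.57, limma adjusted p = 0.0013). It was under 3 on all 4 salt arrays of both bulks, and so entered the test only through the sensitive control arrays where it was high. Another probe set without a gene had 8.88 and 5.76 in the tolerant bulk, against 124 and 86.5 in the sensitive bulk (-3.26 ± 0.27, limma adjusted p = 1.7e-04).

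Smaller negative differences were found for GSTZ5, a glutathione transferase, with 651 and 536 in the tolerant bulk, against 1292 and 1024 in the sensitive bulk (-0.96 ± 0.15, limma adjusted p = 0.012). A dim probe set of GLK2, a transcription factor of chloroplast development, had 96.2 and 97.2 in the tolerant bulk, against 180 and 182 in the sensitive bulk (-0.88 ± 0.17, limma adjusted p = 0.034). The other 3 GLK2 probe sets, the brightest among them, had -0.65, -0.46 and -0.31 and did not pass (limma adjusted p = 0.31, 0.40 and 0.27). RIBA2, of riboflavin synthesis, had 70.8 and 101 in the tolerant bulk, against 212 and 203 in the sensitive bulk (-1.26 ± 0.27, limma adjusted p = 0.049). These 3 probe sets had non-overlapping groups, but the calls of GLK2 and RIBA2 were lost without either tolerant control array (limma adjusted p = 0.21 and 0.32 for GLK2, 0.30 and 0.15 for RIBA2), and that of GSTZ5 without tolerant control replicate 2 (limma adjusted p = 0.20). RIBA2 was also lost without sensitive control replicate 2 (adjusted p = 0.054). GLK2 failed as well without any 1 of the salt arrays, and RIBA2 without either sensitive salt array.

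Dehydrins and late embryogenesis abundant proteins, which protect cells that lose water, were somewhat higher before any salt. Of 11 probe sets 3 were higher and 0 lower, 10 lay above 0, and the median was 0.57. RAB21 had 243 and 245 in the tolerant bulk, against 135 and 110 in the sensitive bulk (0.98 ± 0.13, limma adjusted p = 0.0047), and a second RAB21 probe set had a difference of 0.71 ± 0.13 (limma adjusted p = 0.020). Dhn1 had 631 and 579 in the tolerant bulk, against 395 and 284 in the sensitive bulk (0.84 ± 0.16, limma adjusted p = 0.031). Calls were lost without a tolerant control array, in fits that leave 1 array in that group, while the differences moved little. The second RAB21 probe set had 0.68 and 0.75 without tolerant control replicates 1 and 2, and Dhn1 0.78 and 0.91. The first RAB21 probe set had 0.97 without tolerant control replicate 2. Without sensitive control replicate 1, 7 passed, and without any 1 of the salt arrays 1 passed. RAB16B, RAB16C and RAB16D, of the same dehydrin family, had differences of 0.76, 0.57 and 0.36 that did not pass.

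Metallothioneins, small cysteine-rich metal-binding proteins, had all 15 probe sets above 0 with a median of 0.43, which was 0.16 after quantile normalization. Over all probe sets tested 19605 of 32996 were above 0. The 15 probe sets come from 7 genes, with 5 from MT2C, and are not separate observations. Of them 3 were higher and 0 lower. MT-1-4b had 818 and 785 in the tolerant bulk, against 373 and 265 in the sensitive bulk (1.34 ± 0.18, limma adjusted p = 0.0033). The 2 called MT2C probe sets had 0.79 (limma adjusted p = 0.0098) and 0.59 (limma adjusted p = 0.043). Without tolerant control replicate 2 none of the 15 passed (MT-1-4b limma adjusted p = 0.059, MT2C 0.13 and 0.35), and without sensitive control replicate 1, 5 passed. Aquaporins, the water channels, had a median of 0.50, or 0.23 after quantile normalization, and 2 of 28 were higher, OsTIP3;1 and TIP1-1, another tonoplast aquaporin. Over all probe sets of named genes 2.03% were higher. A TIP1-1 probe set had 3408 and 3762 in the tolerant bulk, against 2462 and 1898 in the sensitive bulk (0.73 ± 0.14, limma adjusted p = 0.027). A second had 0.50 and did not pass. The called one missed the threshold after quantile normalization (adjusted p = 0.11) and without tolerant control replicate 1 (adjusted p = 0.085) or 2 (adjusted p = 0.25). The count of aquaporins was 0 without tolerant control replicate 2, 10 and 5 without sensitive control replicates 1 and 2, and 1 without any 1 of the salt arrays.

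Among 33 probe sets for pathogenesis-related proteins, chitinases and protease inhibitors 4 were higher and 0 lower, with a median of 0.27. Cht-1, a chitinase, had 155 and 187 in the tolerant bulk, against 60 and 23.1 in the sensitive bulk (2.07 ± 0.33, limma adjusted p = 0.011). Cht1, also a chitinase, had 184 and 142 in the tolerant bulk, against 62.8 and 58.2 in the sensitive bulk (1.36 ± 0.19, limma adjusted p = 0.0048). PBZ1, a PR-10 protein induced by infection, had 640 and 616 in the tolerant bulk, against 378 and 324 in the sensitive bulk (0.84 ± 0.13, limma adjusted p = 0.012). OC-I, the cystatin that inhibits cysteine proteases, had 0.59 (limma adjusted p = 0.048), and missed the threshold after quantile normalization (adjusted p = 0.16) and without sensitive control replicate 2 (adjusted p = 0.062). Without tolerant control replicate 1 none of the 33 passed, and without replicate 2 only 1 did, Cht1. The adjusted p without tolerant control replicate 1 was 0.063 for Cht-1, 0.075 for Cht1 and 0.13 for PBZ1. Without sensitive control replicates 1 and 2, 8 and 6 passed.

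Of the salt tolerance genes set apart by name, the dehydrin RAB21 passed the test before salt, as given above, and the others tested did not. HKT1;5, the sodium transporter that retrieves sodium from the xylem, had 58.2 and 62.5 in the tolerant bulk, against 94.7 and 72 in the sensitive bulk (-0.43 ± 0.23, limma adjusted p = 0.44). The difference was 0.67 and 0.26 for 2 probe sets of the potassium transporter HAK5 (limma adjusted p = 0.37 and 0.45), -0.16 for the potassium channel AKT1 and 0.22 for the kinase CIPK24. P5CS1, of proline synthesis, had 0.11, P5CS2 -0.14 and 0.14, the lectin salT 0.13 and -0.22, LEA3-1 0.04, NAC6 0.07 and -0.64, and DREB2A 0.32, and none of these passed. Of 69 probe sets for sodium and potassium transport and its regulation only CIPK14, a CBL-interacting kinase, was called, with 1310 and 1531 in the tolerant bulk, against 782 and 853 in the sensitive bulk (0.79 ± 0.16, limma adjusted p = 0.041). It missed the threshold after quantile normalization, and without tolerant control replicate 1 (adjusted p = 0.11) or 2 (adjusted p = 0.40). No probe set matched HKT1;1, SOS1, NHX1, HAK21, RAB16A or SNAC1 by symbol, and DREB1A was too dim to be tested. The 1 call among these 69 transport probe sets is near the share of 1.45% over all probe sets tested. A missed threshold at 2 arrays a group does not show equal levels.

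Other lists held few calls. In lists of these sizes, 0 or 1 call is near the share of named-gene probe sets called (2.03% higher and 0.357% lower). Leaf photosynthesis had 0 of 18 called, with a median of 0.33 that became -0.04 after quantile normalization, with 2 lower. No call was made among 83 probe sets of abscisic acid synthesis and signalling, 17 of proline, trehalose and glycine betaine synthesis, 31 of DNA replication, 29 of jasmonate synthesis and JAZ repressors, 30 of cytokinin, 25 of expansins or 31 of cellulose synthases. Of 55 cyclin, kinase and histone probe sets only histone H2B.11 was higher, and of 61 auxin probe sets only IAA1, an auxin response repressor, and neither passed after quantile normalization. H2B.11 (limma adjusted p = 0.13 and 0.40) and IAA1 (limma adjusted p = 0.12 and 0.27) also missed the threshold without tolerant control replicates 1 and 2, and without any 1 of the salt arrays. Among 34 antioxidant enzyme probe sets a probe set of CAT-A, a catalase, was higher (0.79 ± 0.12, limma adjusted p = 0.0094) and GSTZ5 lower. The other 2 CAT-A probe sets had 0.41 and 0.58 and did not pass, and the called one missed the threshold without tolerant control replicate 1 (adjusted p = 0.059) or 2 (adjusted p = 0.17). Reference genes were themselves shifted, with 36 of 38 probe sets above 0 and a median of 0.38, or 0.18 after quantile normalization. ACT1, an actin, had 4455 and 5174 in the tolerant bulk, against 2342 and 2740 in the sensitive bulk (0.92 ± 0.13, limma adjusted p = 0.0047), though not without tolerant control replicate 2 (0.81, limma adjusted p = 0.064), and a second ACT1 probe set had 0.47 and did not pass. Without sensitive control replicate 1, 14 of the 38 passed.

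**Figure D3:**
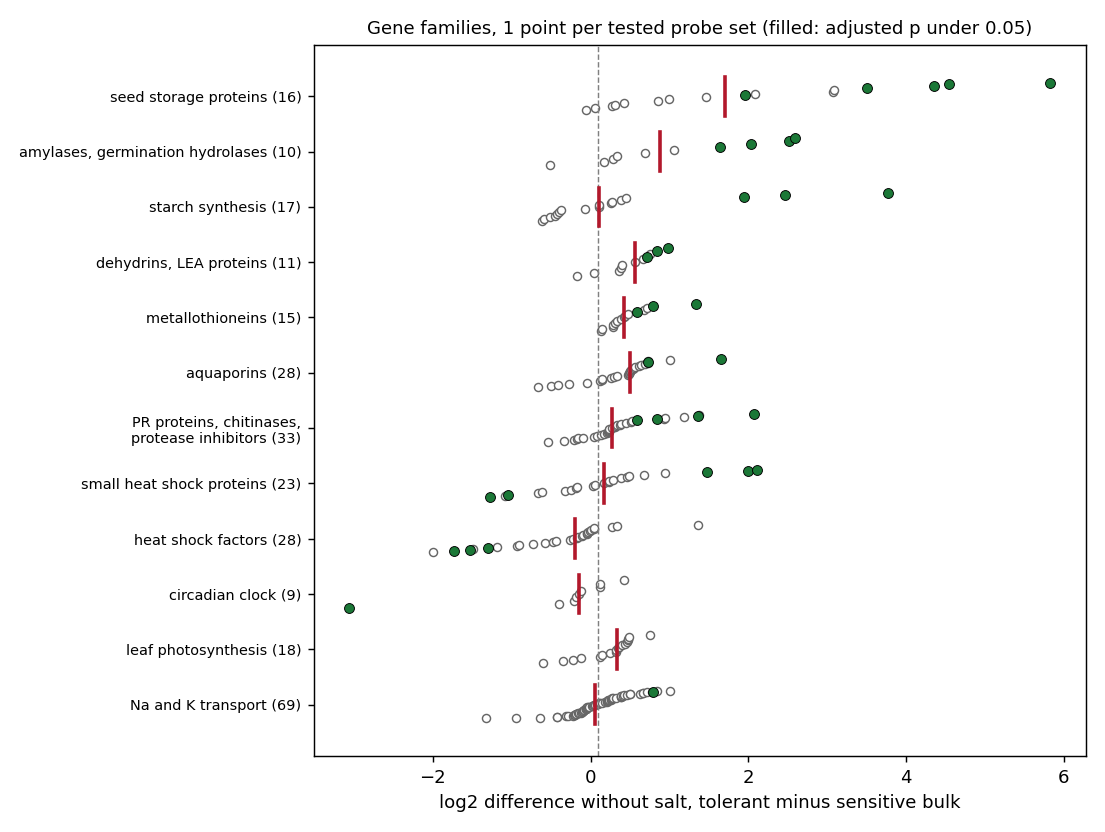
Tolerant minus sensitive difference without salt (log2, horizontal axis) for each tested probe set of 12 gene lists, with filled points for probe sets called at an adjusted p under 0.05, a red mark at the list median and a dashed line at the median of all tested probe sets. Seed storage proteins have a median of 1.71 and germination hydrolases of 0.88, the heat shock factors a median of -0.20, and the small heat shock proteins have calls on both sides.

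The salt arrays of the same bulks share no array with the control comparison, although both come from 1 fit with a shared spread, and they show which differences were also present after 24 h of NaCl. Between the salt-treated bulks 423 probe sets (1.28%) differed, 237 higher (0.718%) and 186 lower (0.564%) in the tolerant bulk, while quantile normalization called 921 (2.79%), 349 higher (1.06%) and 572 lower (1.74%). Of the 480 control calls 398 (82.9%) had the same sign in salt, against 62.3% of all probe sets tested, and 133 were called the same way, which is 27.7% of the control calls and 31.4% of the salt calls. The median of the higher calls was 1.17 without salt and 0.48 in salt, and that of the lower calls -1.05 and -0.59. These probe sets were chosen by their difference without salt, so smaller values in salt follow in part from that choice. The cuts by size that follow share this limit. Large higher calls seldom passed again. Of 245 probe sets higher by more than 1 on the log2 scale 80 were called the same way in salt, of 65 higher by more than 2 it was 7, and of 27 higher by more than 3 it was 0. Of the 13 lower by more than 2 it was 4, and of the 5 lower by more than 3 it was 2. The number of salt calls moved when an array was left out, which also leaves 1 array in its group. Their number was 0 without tolerant salt replicate 1 or 2 (limma, with 3513 and 3034 at an unadjusted p under 0.05), 14 and 4 without sensitive salt replicates 1 and 2, 168 and 170 without tolerant control replicates 1 and 2, and 2419 and 2435 without sensitive control replicates 1 and 2.

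The test of the difference itself, bulk difference in salt minus bulk difference without salt, called 57 probe sets (0.173%), 5 higher (0.0152%) and 52 lower (0.158%). Of the 480 control calls 48 were among them, 43 higher and 5 lower in the tolerant bulk without salt. The largest changes were those of 3 probe sets without a gene (-8.64, -7.22 and -6.89), followed by PROLM25. PROLM25 had 47.7 and 47.6 in the tolerant bulk in salt, against 67.5 and 77.8 in the sensitive bulk in salt, so that its difference of 5.83 without salt was -0.57 in salt (change -6.40 ± 0.32, limma adjusted p = 9.4e-06). The brightest GBSS1 probe set had 576 and 586 in the tolerant bulk in salt, against 1319 and 1274 in the sensitive bulk in salt, and passed the test in the opposite direction there (-1.15, limma adjusted p = 0.037). RA14 had 53 and 63.3 in the tolerant bulk in salt, against 115 and 81 in the sensitive bulk in salt (difference -0.70). In salt none of the 16 storage protein probe sets passed and their median was -0.35. The summed endosperm markers, largely these same transcripts, were 1015 and 1009 in the tolerant bulk in salt, against 1888 and 1788 in the sensitive bulk in salt. The part of grain tissue in these changes was not tested.

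AMY1.1 had 3690 and 3829 in the tolerant bulk in salt, against 2907 and 2972 in the sensitive bulk in salt (0.35, limma adjusted p = 0.27, change -2.24 ± 0.20, limma adjusted p = 7.8e-04). The aleurone markers, mostly AMY1.1 and EP3A, summed to 5954 and 6070 in the tolerant bulk in salt, against 5019 and 4985 in the sensitive bulk in salt. RAB21 reached 2760 and 2805 in the tolerant bulk in salt, against 4097 and 4136 in the sensitive bulk in salt, so that its order was turned (-0.56, limma adjusted p = 0.078, change -1.54 ± 0.19, limma adjusted p = 0.0074). PBZ1 had 412 and 396 in the tolerant bulk in salt, against 793 and 790 in the sensitive bulk in salt, and was called in opposite directions without and with salt (-0.96 in salt, limma adjusted p = 0.0085). PBZ1 and that GBSS1 probe set were the named genes among 6 probe sets called in opposite directions. The other 4 were LOC4350821, LOC4348769 and 2 of the probe sets without a gene that had the largest differences without salt (6.97 and 5.48). The number of calls of this test was 30 and 25 without tolerant control replicates 1 and 2, 211 and 282 without sensitive control replicates 1 and 2, 28 and 26 without tolerant salt replicates 1 and 2, and 27 and 25 without sensitive salt replicates 1 and 2.

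**Figure D4:**
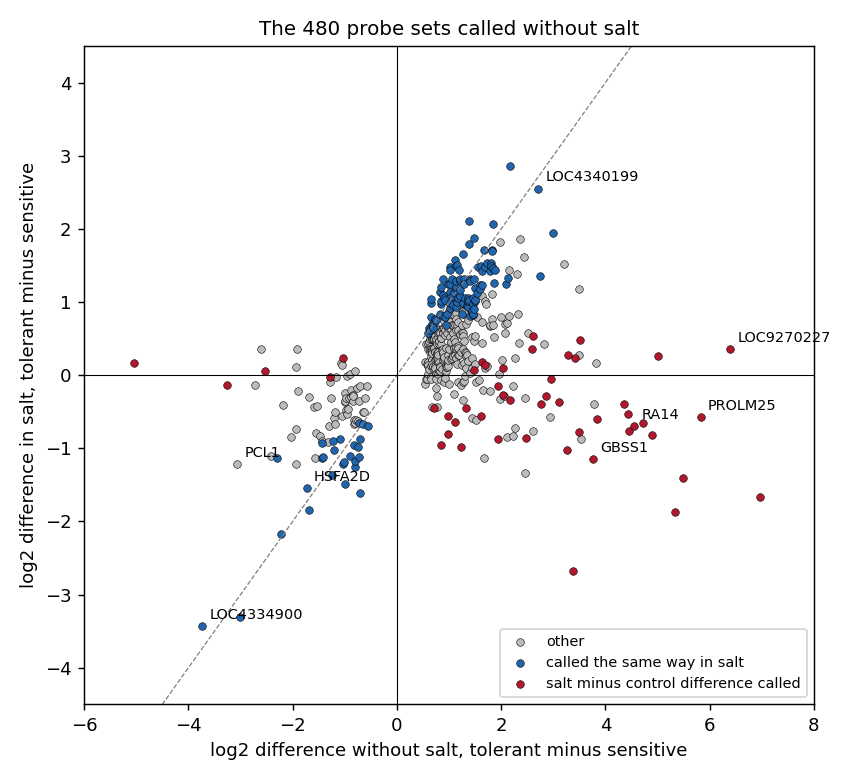
Tolerant minus sensitive difference in salt (log2, vertical axis) against that without salt (log2, horizontal axis) for the 480 probe sets called without salt, a point each, with colours for those called the same way in salt and those with a called change between conditions. The 27 probe sets higher by more than 3 without salt include none called the same way in salt, and a smaller set lies near the diagonal.

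A few genes had nearly equal differences in both conditions. The 4 described next were picked for being called in both, with the lower bulk under 18.4 on all 4 of its arrays. They thus passed the filter only through the other bulk. LOC4334900 had 5.58 and 2.45 in the tolerant bulk, against 158 and 63.8 in the sensitive bulk, without salt (-3.74 ± 0.48, limma adjusted p = 0.0028), and 3.54 and 7.81 in the tolerant bulk, against 80.2 and 119 in the sensitive bulk, with salt (-3.43, limma adjusted p = 0.0085). LOC4333427 had 2.36 and 1.35 in the tolerant bulk, against 53.2 and 35.3 in the sensitive bulk, without salt, and differences of -3.02 without salt and -3.31 with salt. LOC4338401 had 13 and 7.48 in the tolerant bulk, against 67.7 and 56 in the sensitive bulk, without salt, and differences of -2.23 and -2.17. These 3 loci were dim in the tolerant bulk throughout, which restates the rule that picked them. LOC4340199 was the reverse, with 105 and 77.7 in the tolerant bulk, against 8.52 and 12.5 in the sensitive bulk, without salt (2.71 ± 0.32, limma adjusted p = 0.0016) and a difference of 2.55 with salt. Without tolerant control replicate 2 the control differences of LOC4333427 (adjusted p = 0.069) and LOC4338401 (adjusted p = 0.16) missed the threshold.

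Of the named genes, 7 were called the same way in both conditions. A probe set of NMCP1A, a nuclear matrix constituent protein, had 210 and 231 in the tolerant bulk, against 49.9 and 67.8 in the sensitive bulk, without salt (1.85 ± 0.20, limma adjusted p = 0.0011) and a difference of 1.46 with salt. The other NMCP1A probe sets did not pass without salt (0.41 and 0.58, limma adjusted p = 0.12 and 0.24), and had 0.42 and -0.16 with salt. A probe set of eIF-4G, the scaffold of the translation initiation complex, had 1363 and 1243 in the tolerant bulk, against 569 and 495 in the sensitive bulk, without salt (1.29 ± 0.14, limma adjusted p = 0.0010) and 1.25 with salt. In these 2 called probe sets every tolerant array lay above every sensitive array in either condition, while the other 3 eIF-4G probe sets had -0.17, 0.43 and 0.53 without salt and did not pass. MT-1-4b had 1.34 without and 0.94 with salt, GF14E, a 14-3-3 protein, 0.59 and 0.58, and FIL1, a YABBY transcription factor, 0.62 and 0.65. HSFA2D had -1.73 and -1.54, and pinA -1.22 ± 0.14 (limma adjusted p = 0.0012) and -0.90. The pinA signals without salt were 702 and 605 in the tolerant bulk, against 1579 and 1466 in the sensitive bulk. GF14E and FIL1 missed the threshold without salt after quantile normalization and without tolerant control replicate 1 or 2.

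**Figure D5:**
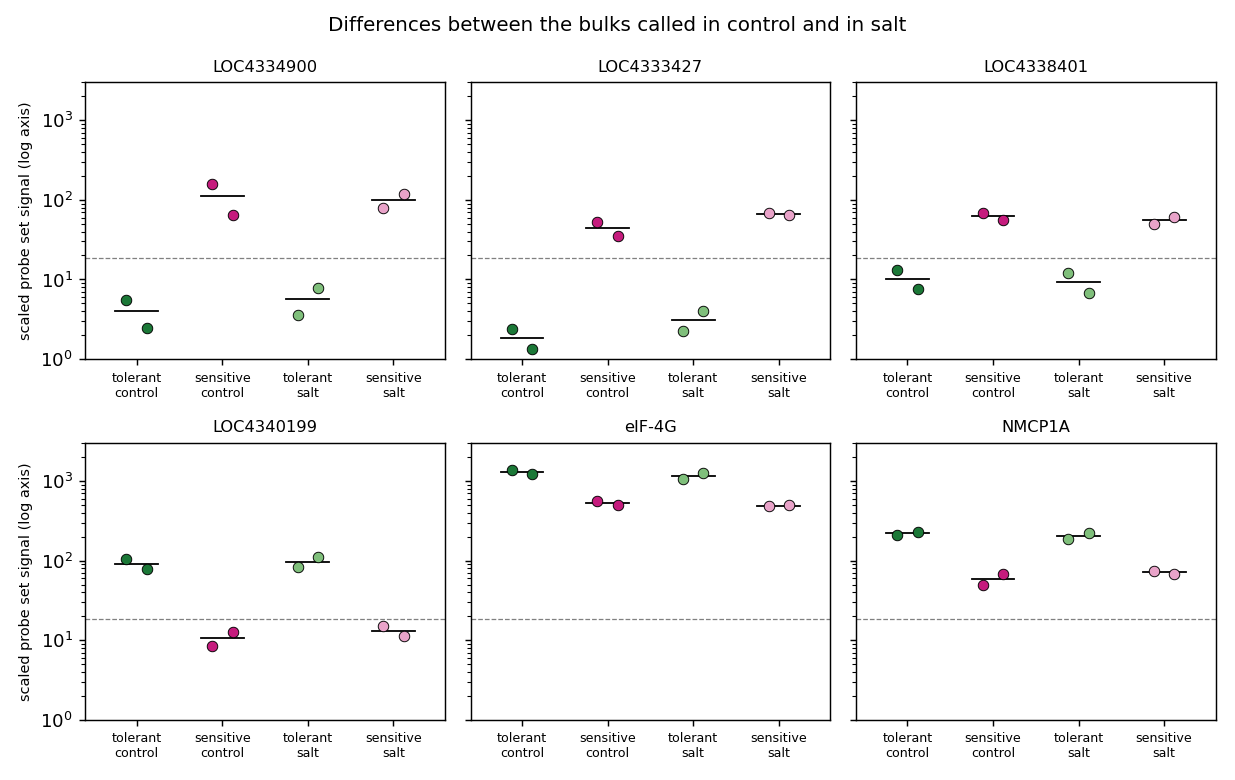
Scaled signal (log axis) of 6 probe sets, named by their gene, whose difference was called in both conditions, on each of the 8 bulk arrays, with a point per array, a bar at each group mean and a dashed line at the dim limit of 18.4. LOC4334900, LOC4333427 and LOC4338401 lie under the limit on all 4 tolerant arrays and above it on all 4 sensitive arrays, LOC4340199 shows the reverse, and the called probe sets of eIF-4G and NMCP1A are higher on all 4 tolerant arrays.

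Calls were also read along the gene order of the rice gene table, which may differ from the order in these lines. Of 15963 genes tested, 265 were called in 1 direction, and 32 of these fell into 10 runs of at least 3 genes called alike with at most 10 tested genes between them. In the most compact run, pinA, LOC4325998 and LOC4326000 were consecutive tested genes, all lower, and 2 of the 3 were also called lower in salt. RA14 lay in a run of 3 higher genes over 6 tested genes with LOC4342721, which had 201 and 193 in the tolerant bulk, against 3.52 and 2.08 in the sensitive bulk (4.89 ± 0.54, limma adjusted p = 0.0011), and LOC4342729 (2.04 ± 0.25). A second LOC4342721 probe set had a difference of 0.92 and did not pass (limma adjusted p = 0.28). PBZ1 lay within 4 tested genes together with LOC4352487 and LOC4352488, all higher. Neighbouring family members can share probe signal. The 6 other runs that were higher included ACT1 and PHYA, a phytochrome, in 1, IAA1 in another and GER2 in another, and the second run that was lower held GLK2 with 3 unnamed loci. Without tolerant control replicate 2, LOC4326000 (adjusted p = 0.081) and LOC4325998 (adjusted p = 0.20) missed the threshold. The adjusted p without tolerant control replicates 1 and 2 was 0.15 and 0.24 for LOC4352487, 0.14 and 0.18 for LOC4352488, 0.18 and 0.31 for PHYA, and 0.30 and 0.25 for GER2. LOC4325998 missed it without replicate 1 as well (adjusted p = 0.14), and PHYA after quantile normalization (adjusted p = 0.10). Runs were not set against chance.

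The parent arrays allowed a description only. CSR27 control replicate 2 had no rice signal (rank correlation of 0.0101 with another array), which left 1 CSR27 and 2 MI48 control arrays, all dim and on another scale. Of 445 control calls with parent signal 237 (53.3%) had the same sign in CSR27 minus MI48 as in tolerant minus sensitive bulk, against 51.3% of the 29406 tested probe sets with parent signal. Among calls shared by control and salt it was 55 of 125 (44%), and among calls whose difference changed with salt 27 of 41 (65.9%). The MI48 arrays disagreed for the loci dim in the tolerant bulk, and for pinA, which was not dim there. LOC4334900 had 0.968 in CSR27 and 403 and 3.68 in MI48, and pinA had 105 in CSR27 and 2667 and 46.6 in MI48. A RAB21 probe set and LEA3-1 disagreed as well, with 29 and 4132, and 38.7 and 2864, in MI48 replicates 1 and 2. In the unstressed bulks that RAB21 probe set had 243 and 245 (tolerant), against 135 and 110 (sensitive). Both MI48 arrays entered every sign count above, and the cause of their disagreement was not tested.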

How the data were processed

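Deposited values were probe set signals, intensity on a linear scale, which the authors computed in GCOS 1.2 (per the submitters' processing notes), with settings not given in the sources used here. RNA (8 µg) from 10-day-old seedlings was hybridised, per the labels. From 57381 probe sets 123 controls were removed. The 8 bulk arrays were scaled to a common median of 18.4, log2(signal + 4) was taken (4 is the 25th percentile), and 32996 of 57258 probe sets, at or above 18.4 on at least 2 arrays, were tested in a group-means model with limma 3.58.1 in R 4.3.3 (intensity trend, two-sided, Benjamini-Hochberg, threshold 0.05). The steps were tested on simulated data. Array numbers limit the precision.

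The members, the lists and the 8-array fit were chosen with earlier results of these data known, and gene lists have counts and medians but no test. A fit of all 16 arrays, added after the data were seen, called 0 probe sets. Named were the 25 largest named-gene differences per direction (10 existed below 0), the 5 largest of any annotation, called or largest list members, salt tolerance genes and genes of runs. One gene was assigned to 22436 probe sets, several to 95 and none to 34727 by the platform annotation. All 17905 gene IDs matched the gene table (ASM3414082v1), and 2457 genes had a name. Replicate numbers did not pair arrays (correlations of deviations of -0.000494 to 0.0265). Alternatives were the 4 control arrays alone, quantile normalization, all probe sets without a filter, 0.25 of the pseudocount, array weights, a replicate block and each array left out.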

Additional observations from a re-analysis of the deposited data

Results flagged for a closer look

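These results were singled out because the difference between the bulks in salt was unlike that without salt, by limma's interaction contrast. Values are the difference in salt minus the difference without salt, on the log2 scale, with the adjusted p over all tested probe sets. Single arrays were not tested as outliers, since each group had 2.

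Among storage protein and starch transcripts, the change was -6.40 (adjusted p = 9.4e-06) and -4.75 (adjusted p = 0.0073) for PROLM25, -5.25 (adjusted p = 5.2e-05) for RA14, -4.29 (adjusted p = 0.0069) for GLUB-5, and -4.92 (adjusted p = 5.2e-05) and -2.09 (adjusted p = 0.040) for GBSS1. LOC4342721 and LOC4342729, neighbours of RA14, changed by -5.72 (adjusted p = 0.014) and -2.30 (adjusted p = 0.034). Hydrolases of germination followed, with AMY1.1 at -2.24 (adjusted p = 7.8e-04), EP3A at -1.93 (adjusted p = 0.048) and cbp3 at -1.46 (adjusted p = 0.0088). The haemoglobin NSHB2 changed by -1.40 (adjusted p = 0.017).

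The dehydrin RAB21 changed by -1.54 (adjusted p = 0.0074) and -1.17 (adjusted p = 0.034), PBZ1 by -1.80 (adjusted p = 0.0025) and its neighbour LOC4352488 by -1.75 (adjusted p = 0.034). LOC9270227 changed by -6.03 (adjusted p = 4.2e-04). Of the probe sets without a gene, those with differences of 6.97, 5.48 and 5.34 without salt changed by -8.64 (adjusted p = 9.4e-06), -6.89 (adjusted p = 4.9e-07) and -7.22 (adjusted p = 0.0022). Positive changes, from a lower level in the tolerant bulk without salt, were found for HSP18.1 at 1.26 (adjusted p = 0.034) and 1.27 (adjusted p = 0.025), and probe sets without a gene that had -5.05 and -3.26 without salt, at 5.21 (adjusted p = 0.037) and 3.12 (adjusted p = 0.0069).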

How the results depend on the processing

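Of the 92 named probe sets called without salt, 0 reversed under any alternative on the 8 bulk arrays. With quantile normalization 78 kept their call, with no filter 61, with 0.25 of the pseudocount 87, with the 4 control arrays alone 39, with array weights 66, and with the replicate block 92.

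The count of 480 calls was 720 with quantile normalization, 298 with no filter, 448 with 0.25 of the pseudocount, 134 with the 4 control arrays alone, 574 with the replicate block and 293 with array weights. It ranged from 109 to 3149 with an array left out. Higher calls (391) were 239 with no filter, 115 with the 4 control arrays alone, 242 with array weights, 466 with the replicate block and 90 to 2900 with an array left out. Lower calls (89) were 352 with quantile normalization, 59 with no filter, 19 with the 4 control arrays alone, 51 with array weights, 108 with the replicate block and 19 to 662 with an array left out. A fit of all 16 arrays with limma called 0 of 50533 (158 at an unadjusted p under 0.05), with a median residual SD of 0.923 against 0.262. Salt calls (423) were 921 with quantile normalization, 208 with no filter, 1652 with array weights, 493 with the replicate block and 0 to 2435 with an array left out, and calls of the change (57) were 74, 36, 66, 61 and 25 to 282. The cause of these moves was not tested.

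Some uncalled salt genes reversed. With quantile normalization P5CS1 and LEA3-1 had -0.01, salT -0.11 and NAC6 -0.04. Without tolerant control replicate 1, P5CS2 had -0.17 and LEA3-1 -0.09, without sensitive control replicate 1 NAC6 had -0.14, and without sensitive control replicate 2 P5CS1 had -0.22, LEA3-1 -0.55 and DREB2A -0.65. The replicate block changed no other call of a named gene. With an array left out, these ran from -0.22 to 0.45 for P5CS1, -0.17 to 0.45 for P5CS2, -0.55 to 0.62 for LEA3-1, -0.14 to 0.27 for NAC6 and -0.65 to 1.29 for DREB2A. Signal near the dim limit bounds what can be read of dim probe sets.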
